A study of Homo sapiens with 11 samples.

Results

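The PI3K, AKT and mTOR components described here are 8 genes: PIK3CA, PIK3CB, PIK3R1, AKT1, AKT2, MTOR, RICTOR and RPTOR. They were taken by symbol from the 28152 gene symbols of the count table, which held all 8, and all 8 passed the filter on low counts. Expression was measured by RNA sequencing in tumours labelled BT474, a line of human breast cancer cells labelled positive for hormone receptors and HER2, grown in the mammary fat pad of female athymic nude mice. Estradiol was supplied to every animal by a 90-day pellet of 0.72 mg, and athymic mice lack a thymus and so most T cells. One group of 6 tumours came from animals injected under the skin every 4 days with vehicle (5% mannitol in water), and the other of 5 tumours from animals injected on the same schedule with evexomostat (SDX-7320) at 12 mpk. All tumours are labelled day 33, and the ages of the animals are not given in the sources used here. Evexomostat inhibits methionine aminopeptidase 2, an enzyme that removes the first methionine from new proteins. The comparison addresses how the transcripts of these genes differed between tumours of treated and vehicle animals.

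Class I PI3 kinases are pairs of a catalytic and a regulatory subunit that make the lipid PIP3 at the plasma membrane when growth factor receptors, such as HER2 with its partner HER3, are active. PIP3 recruits the AKT kinases, which are phosphorylated there by PDK1 and by mTOR complex 2. The kinase mTOR works in a pair of complexes. Complex 1, built around raptor (RPTOR), drives protein synthesis and growth, and complex 2, built around rictor (RICTOR), phosphorylates AKT. This pathway is among those most often activated in breast cancer, and its activity is set mainly by phosphorylation, which RNA sequencing does not measure.

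Library totals ranged from 22808033 to 39249329 counts, and the 8 genes together held between 8495 and 28925 counts per library. Vehicle replicate 001 stood apart: its 100 most abundant genes held 23.9% of its counts against 16.2% to 17.9% elsewhere, and ribosomal protein genes held 13.5% against 4.57% to 8.24%. Per doubling of transcript length its genes departed by -0.15 log2 units from their 11-library mean, and those of the other libraries by -0.06 to 0.06. The fold changes of the 8 genes and the ratios between them are therefore given with and without it. Of 10 genes of luminal epithelium and of the labelled receptors, 6 averaged at least 1 RPM (counts scaled to a common total per library). ERBB2, the gene of HER2, was at 23.0 to 65.3 RPM, with a mean of 53.7 beside 108.9 for METAP2, the gene of methionine aminopeptidase 2. The means were 331.6 RPM for KRT8, 148.6 for KRT18, 6.50 for GATA3, 3.03 for EPCAM and 1.05 for FOXA1. ESR1, the gene of the estrogen receptor, had only 1 to 17 counts per library and so was near 0. PGR, the gene of the progesterone receptor (0 to 5 counts), CDH1 (4 to 43) and KRT19 (0 to 46) also averaged under 1 RPM. How far these levels match the label of the line was not tested. Of 12 skeletal muscle markers, 7 averaged at least 1 RPM. The 12 summed to 6.57 to 528.1 RPM over the evexomostat libraries (median 29.3), highest in replicate 005, against 5.98 to 26.3 RPM over the vehicle libraries (median 12.0). The evexomostat median was thus above every vehicle library. The part of such tissue in the values below was not tested. In whole tumours, fewer cells of a type and less RNA per cell cannot be told apart.

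No component rose or fell past the threshold. In edgeR's quasi-likelihood test 0 of the 8 genes had an adjusted p-value under 0.05, where 0.606% of the 16653 genes tested did (0.174% higher and 0.432% lower), and 0 of 8 had an unadjusted p under 0.05, where 13.4% of all genes did. DESeq2, which called 3.90% of all genes, and limma-voom, which called 0.534%, also called 0 of 8. Their unadjusted p was under 0.05 in 1 of 8 (PIK3R1) by DESeq2, beside 15.3% of all genes, and in 0 of 8 by limma-voom, beside 12.8%. The groups overlapped in CPM (counts scaled to a common total after TMM normalisation) in all 8 genes, and did not overlap in 2.97% of all genes. Of the 8 log2 fold changes, evexomostat over vehicle, 3 were above 0 (44.6% of all genes were) and 5 below (55.4% of all genes were), with a median of -0.08 beside -0.04 over all tested genes. They ran from -0.50 in PIK3R1 to 0.15 in AKT2. Without vehicle replicate 001, where 5.22% of all genes passed the threshold, again 0 of 8 did, and 1 of 8 (PIK3R1) had an unadjusted p under 0.05 beside 24.4% of all genes.

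**Figure D1:**
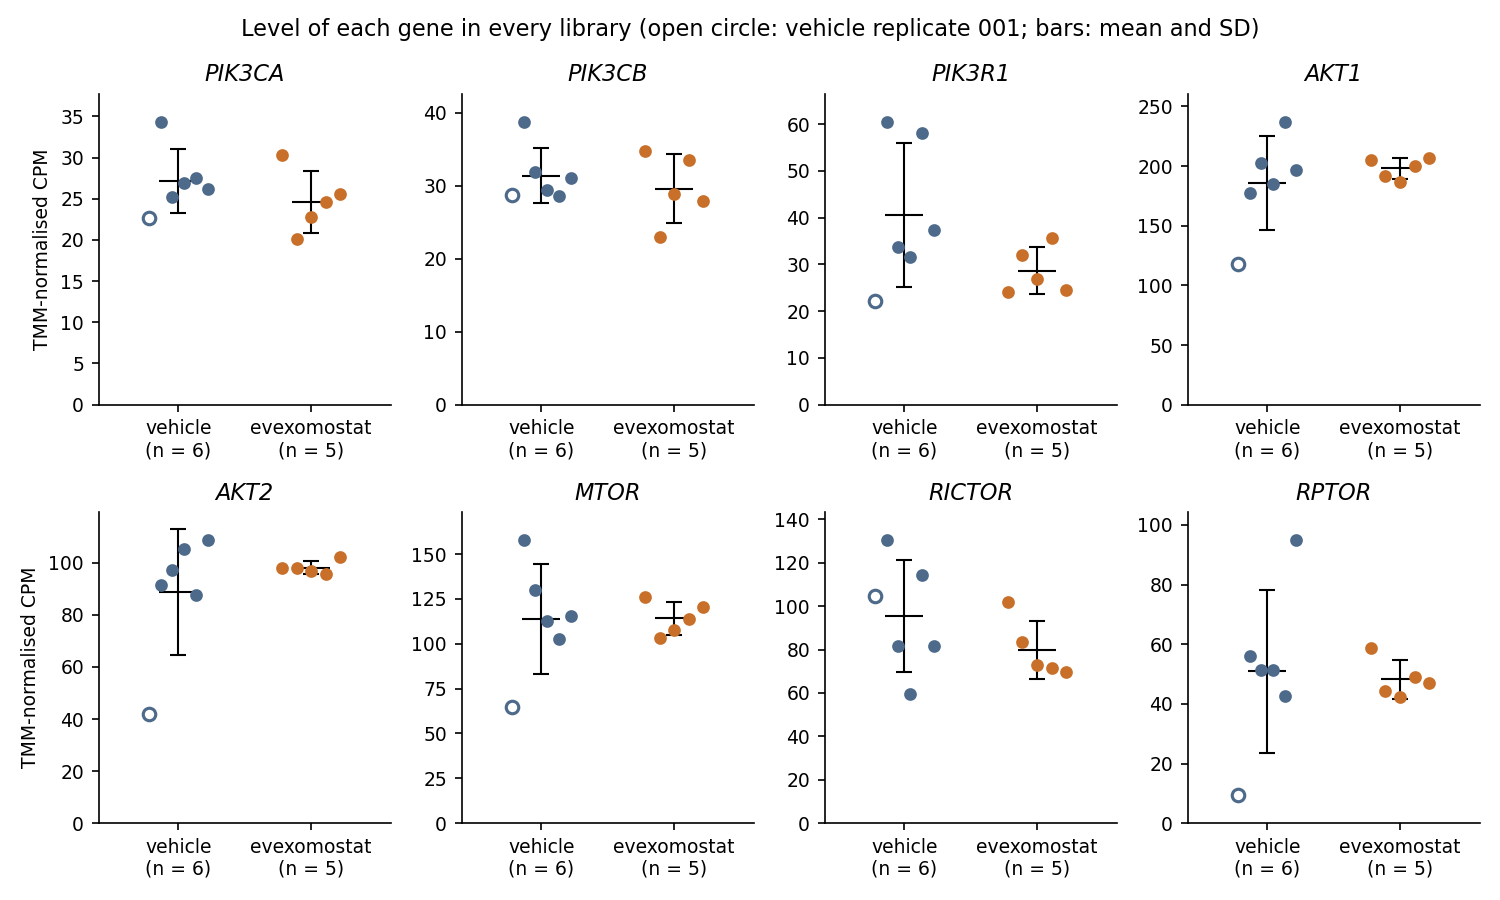
TMM-normalised CPM (y axis, from 0) of each of the 8 genes in every library, with vehicle in blue (n = 6) and evexomostat in orange (n = 5). Points are libraries, the open circle is vehicle replicate 001, and bars are the mean and SD; the groups overlap in every panel, and vehicle replicate 001 is the lowest vehicle library in 6 of 8.

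Of the catalytic subunits, PIK3CA encodes p110 alpha, the form most often mutated in breast cancer, and PIK3CB encodes p110 beta. PIK3CA was at 22.6 CPM in the lowest vehicle library, 26.6 at the median and 34.3 in the highest. Its evexomostat libraries 002, 003, 004, 005 and 007 were at 30.3, 20.1, 22.8, 24.6 and 25.5 CPM. The evexomostat range reached below the vehicle range by a single library, replicate 003, and otherwise lay inside it. The means were 27.2 ± 3.92 CPM (SD, n = 6) and 24.6 ± 3.76 (SD, n = 5), with a log2 fold change of -0.14 ± 0.14 SE (adjusted p 0.741 by edgeR). The 95% confidence interval ran from -0.44 to 0.16, that is, from 0.735-fold to 1.12-fold. Leaving out vehicle replicate 001 gave -0.18 (adjusted p 0.412 by edgeR).

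PIK3CB was at 28.6 CPM in the lowest vehicle library, 30.2 at the median and 38.7 in the highest. In the evexomostat libraries, in the same order, it was at 34.7, 23.0, 28.9, 33.4 and 27.9 CPM. As with PIK3CA, replicate 002 was the highest and replicate 003 the lowest of the evexomostat libraries, and vehicle replicate 003 was the highest of all. The log2 fold change was -0.08 ± 0.14 SE (adjusted p 0.855 by edgeR), with an interval from -0.38 to 0.21, and was -0.10 (edgeR adjusted p 0.659) with vehicle replicate 001 left out. Vehicle libraries varied little in both genes, with SDs of log2 CPM of 0.20 for PIK3CA and 0.16 for PIK3CB. Only 12.1% and 7.28% of all tested genes had vehicle SDs as small or smaller. Here and in the later shares of SDs, genes were not matched by count level. Without vehicle replicate 001 the SDs were 0.174 and 0.172, while the median vehicle SD of all tested genes fell from 0.420 to 0.280.

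PIK3R1 encodes p85 alpha, the regulatory subunit that stabilises the catalytic subunits, holds them inactive and brings them to phosphorylated receptors; shorter forms arise from other start sites of the same gene and are counted with it here. It had the largest estimate and the smallest p-value of the 8. PIK3R1 was at 22.2 CPM in the lowest vehicle library, 35.6 at the median and 60.5 in the highest. Its evexomostat libraries were at 24.2, 32.0, 26.8, 35.6 and 24.5 CPM. Vehicle replicates 003 and 006, at 60.5 and 58.0 CPM, stood above all other libraries, and the remaining vehicle values lay within or just beside the evexomostat range. The means were 40.6 ± 15.3 CPM (SD, n = 6) and 28.6 ± 4.98 (SD, n = 5).

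The log2 fold change of PIK3R1 was -0.50 ± 0.24 SE (edgeR, adjusted p 0.386 and unadjusted p 0.0553), with a 95% interval from -1.02 to 0.01. Without vehicle replicate 001, the lowest vehicle library for this gene, it was -0.62 with an interval from -1.05 to -0.19, and the edgeR adjusted p of 0.0837 did not pass. Without vehicle replicate 003 it was -0.35 (edgeR adjusted p 0.572). Over all alternatives the estimate kept its sign, and the adjusted p ranged from 0.0810 to 0.626. The promoter of PIK3R1 is printed because it belongs to the component with the largest estimate. The 250 bases before the RefSeq start of the gene lie at chr5:68215506-68215755 (GRCh38.p14, plus strand), and capitals mark the GC box, GGGCGG on either strand (overlapping matches counted), of which the window holds 5:
PIK3R1: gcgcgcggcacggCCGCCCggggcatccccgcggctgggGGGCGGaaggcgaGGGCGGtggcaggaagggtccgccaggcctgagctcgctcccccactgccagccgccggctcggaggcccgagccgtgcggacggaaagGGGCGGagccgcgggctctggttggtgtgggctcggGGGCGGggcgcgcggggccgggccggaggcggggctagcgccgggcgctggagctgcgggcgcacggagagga

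GC boxes are sites that SP-family factors can bind and are common in promoters of broadly expressed genes. In the windows of the 8 genes there were 7 in AKT1, 5 in PIK3R1, 4 each in AKT2 and RICTOR, 3 in PIK3CB, 1 each in PIK3CA and MTOR, and 0 in RPTOR. Among all 35116 RefSeq windows of this length, 42.6% held at least 1. The forkhead motif TGTTTAC, the letters that FOXO factors (which AKT holds out of the nucleus) can bind, was searched on both strands and occurred once, in PIK3CA, and in 2.98% of all windows. The E-box CACGTG occurred in none of the 8 windows and in 6.34% of all. These matches are a description of the letters in the windows.

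AKT1 and AKT2 encode closely related kinases that act below PI3K; AKT2 is known for its part in the response to insulin. AKT1 was at 117.8 CPM in the lowest vehicle library, 190.8 at the median and 237.1 in the highest. The evexomostat libraries were at 205.2, 191.6, 186.7, 200.2 and 207.0 CPM, all within the vehicle range. For AKT1 the log2 fold change was 0.09 ± 0.15 SE (adjusted p 0.864 by edgeR), with an interval from -0.24 to 0.42. With vehicle replicate 001 left out, which held the lowest value, it was -0.00475 with an interval from -0.21 to 0.20.

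AKT2 was at 41.8 CPM in vehicle replicate 001 and between 87.7 and 108.6 CPM in the other 5 vehicle libraries, with a vehicle median of 94.5 CPM. Under evexomostat it was at 98.1, 98.1, 97.0, 95.6 and 102.2 CPM. The evexomostat libraries lay close together, with an SD of log2 CPM of 0.04, and only 0.342% of all tested genes had an SD as small or smaller in these 5 libraries. The log2 fold change was 0.15 ± 0.20 SE (adjusted p 0.817 by edgeR), with an interval from -0.28 to 0.57. With vehicle replicate 001 left out it was 0.00667, with an interval from -0.18 to 0.19.

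Because AKT1 and AKT2 are close copies, the letters they share bear on how their reads can be assigned. The longest run common to their coding sequences in GENCODE 29 is 32 bases, starting at base 700 of the AKT1 coding sequence and base 706 of the AKT2 one, and capitals mark the whole shared run:
AKT1 and AKT2: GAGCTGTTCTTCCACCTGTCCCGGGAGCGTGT

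Reads were 150 bases long per end, so no exact read-length stretch is common to AKT1 and AKT2. The longest run common to the coding sequences of PIK3CA and PIK3CB was 12 bases. Overlap with genes on the opposite strand was larger. In PIK3CA 36.4% of the 150-base windows of the main transcript also lie in transcripts of KCNMB3, a potassium channel subunit gene that runs the other way, and in AKT1 12.8% lie in the opposite-strand gene AL583722.2. For the other 6 genes that share was 0%. The use of strand in counting is not given in the sources used here, so reads from these stretches cannot be told apart and the levels of PIK3CA and AKT1 are uncertain to that extent. KCNMB3 itself had 216 to 401 counts per library and a log2 fold change of -0.14 ± 0.25 SE (adjusted p 0.879 by edgeR).

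MTOR encodes the kinase shared by both mTOR complexes. It was at 64.7 CPM in the lowest vehicle library, vehicle replicate 001, 113.9 at the median and 157.7 in the highest, replicate 003. The evexomostat libraries were at 125.8, 103.0, 107.7, 113.6 and 120.6 CPM, all inside the vehicle range. The group means differed by less than 1 CPM, at 113.7 ± 30.7 (SD, n = 6) and 114.1 ± 9.26 (SD, n = 5). Its log2 fold change was 0.00468 ± 0.18 SE (adjusted p 0.995 by edgeR), with an interval from -0.39 to 0.40. Its sign depended on the fit, and with vehicle replicate 001 left out it was -0.11 with an interval from -0.37 to 0.15.

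RICTOR, the scaffold of mTOR complex 2, was at 59.5 CPM in the lowest vehicle library, 93.1 at the median and 130.4 in the highest. Its evexomostat libraries were at 102.0, 83.4, 72.9, 71.5 and 69.8 CPM. All 5 lay inside the vehicle range, and 4 of 5 were below the vehicle median. For RICTOR the log2 fold change was -0.25 ± 0.19 SE (adjusted p 0.635 by edgeR), with an interval from -0.67 to 0.16, and -0.22 (edgeR adjusted p 0.521) with vehicle replicate 001 left out. It was the only one of the 8 that was above its 11-library mean in vehicle replicate 001, at 104.6 CPM.

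RPTOR, the scaffold of mTOR complex 1, was the most variable of the 8 over all vehicle tumours, though not without vehicle replicate 001. It was at 9.45 CPM in vehicle replicate 001, from 195 counts, at 94.9 CPM in vehicle replicate 007, and between 42.6 and 56.1 CPM in the other 4. Under evexomostat it was at 58.9, 44.3, 42.2, 48.9 and 47.0 CPM, near those 4 middle vehicle libraries. The SD of its log2 CPM was 1.12 among vehicle libraries, as large as or larger than in 96.0% of all tested genes, and 0.18 among evexomostat libraries. Without vehicle replicate 001 its vehicle SD was 0.436, beside 0.447 for RICTOR and 0.444 for PIK3R1. The log2 fold change was -0.08 ± 0.37 SE (adjusted p 0.961 by edgeR), and its interval, from -0.88 to 0.73, was the widest of the 8. Leaving out vehicle replicate 001 gave -0.29 (interval -0.71 to 0.13, edgeR adjusted p 0.381), and without vehicle replicate 007 it was 0.19 (edgeR adjusted p 0.881), so its direction rested on single libraries. In the 8 libraries whose numbers occur in both groups, it was -0.48 (edgeR, unadjusted p 0.0313 and adjusted p 0.160), and 733 of all genes passed the threshold. Left out there were vehicle replicates 001 and 006 and evexomostat replicate 002. Vehicle replicate 006, at 42.6 CPM, was the next lowest vehicle library for RPTOR. Evexomostat replicate 002, at 58.9 CPM, was the highest of its group.

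The promoters of RICTOR and RPTOR are printed side by side because these scaffolds of the mTOR complexes had vehicle SDs of log2 CPM of 0.41 and 1.12. Without vehicle replicate 001 these SDs were 0.447 and 0.436, so that difference rested on a single library. A link between promoter sequence and spread was not tested. The windows are the 250 bases before each RefSeq start, for RICTOR chr5:39074400-39074649 on the minus strand and for RPTOR chr17:80544588-80544837 on the plus strand (GRCh38.p14), with GC boxes in capitals. The RICTOR window is 76.0% G and C and the RPTOR window 47.2%, against a median of 58.0% over all windows:
RICTOR: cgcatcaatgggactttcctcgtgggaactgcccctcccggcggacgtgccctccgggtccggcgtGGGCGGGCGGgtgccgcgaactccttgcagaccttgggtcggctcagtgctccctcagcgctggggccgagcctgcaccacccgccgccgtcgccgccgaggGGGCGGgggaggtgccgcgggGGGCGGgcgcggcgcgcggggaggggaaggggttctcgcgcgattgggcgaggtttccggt
RPTOR: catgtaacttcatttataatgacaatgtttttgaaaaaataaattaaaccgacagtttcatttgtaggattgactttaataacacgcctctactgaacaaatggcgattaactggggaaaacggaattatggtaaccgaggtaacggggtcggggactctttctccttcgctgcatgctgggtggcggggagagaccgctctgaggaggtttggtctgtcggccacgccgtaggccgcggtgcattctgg

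**Figure D2:**
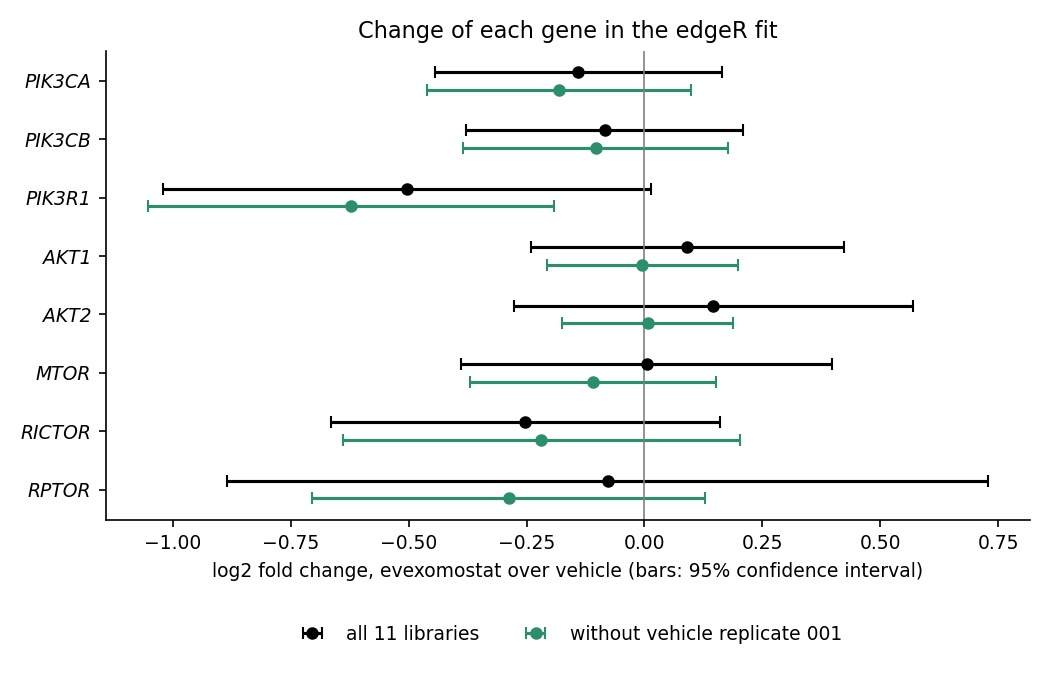
Log2 fold change, evexomostat over vehicle (x axis), of each of the 8 genes in the edgeR fit with all 11 libraries (black) and without vehicle replicate 001 (green), with 95% confidence intervals as bars. All black intervals include 0; in green only that of PIK3R1, from -1.05 to -0.19, does not.

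Leaving out vehicle replicate 001 narrowed most intervals. The SE fell from 0.20 to 0.08 for AKT2, from 0.15 to 0.09 for AKT1 and from 0.37 to 0.19 for RPTOR, and was 0.19 in both fits for RICTOR. In that library RPTOR lay -2.23 log2 units from its mean over the 11 libraries, AKT2 -1.12, MTOR -0.79, AKT1 -0.68 and PIK3R1 -0.59. The trend of that library with transcript length and GC content, fitted over all genes, gave -0.75 for RPTOR, -0.67 for AKT2, -0.63 for MTOR, -0.84 for AKT1 and -0.05 for PIK3R1. The trend was thus about the size of the departure for MTOR and AKT1 and smaller than it for RPTOR, AKT2 and PIK3R1. For PIK3CA and PIK3CB the trend had the opposite sign, at 0.10 and 0.04 against departures of -0.19 and -0.08, and for RICTOR it was 0.03 against 0.28. With the trends of all libraries removed, the 8 log2 fold changes ran from -0.38 (PIK3R1) to 0.12 (AKT2) and no edgeR adjusted p was under 0.473.

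The SD of log2 CPM was smaller under evexomostat in 6 of 8 genes, with PIK3CA and PIK3CB as the exceptions, and in 81.2% of all tested genes. Without vehicle replicate 001 it was again smaller in 6 of 8, beside 63.1% of all genes, and the median SD of the 8 was 0.21 under vehicle and 0.20 under evexomostat. The genes did not share 1 order of libraries. Vehicle replicate 003 was the highest vehicle library for 5 genes (PIK3CA, PIK3CB, PIK3R1, MTOR and RICTOR), and evexomostat replicate 002 was the highest of its group for 5 (PIK3CA, PIK3CB, MTOR, RICTOR and RPTOR) and the lowest for PIK3R1. The part of cell content in these orders was not tested.

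Between genes, levels are compared as CPM per kilobase of the union of annotated exons in GENCODE 29. AKT1 was the most abundant, with vehicle libraries at 40.5 ± 8.56 CPM per kb (SD, n = 6) and evexomostat libraries at 43.2 ± 1.90 (SD, n = 5). AKT2 followed at 15.2 and 16.8 CPM per kb, MTOR at 12.0 and 12.1, RICTOR at 9.91 and 8.31, RPTOR at 7.08 and 6.71, PIK3CB at 5.24 and 4.94, PIK3R1 at 5.23 and 3.69, and PIK3CA at 2.96 and 2.69. The order of the group means was the same in both groups. In vehicle libraries AKT1 alone did not overlap the next gene, and the other neighbours in the order overlapped in their ranges. Under evexomostat AKT1, AKT2, MTOR and RICTOR did not overlap from one to the next, nor did RPTOR and PIK3CB, while RICTOR with RPTOR, PIK3CB with PIK3R1 and PIK3R1 with PIK3CA did. With the length of the main coding transcript in place of the exon union, PIK3R1 and PIK3CB changed places under vehicle.

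Ratios of the counts of 2 genes in the same library do not depend on scaling between libraries, and 5 were compared. The ratio of RICTOR to RPTOR was 0.861 in the lowest vehicle library, 1.92 at the median and 11.1 in the highest, vehicle replicate 001. Under evexomostat it was 1.73, 1.88, 1.73, 1.46 and 1.49, inside the vehicle range. The mean log2 ratio was 1.13 ± 1.30 (SD, n = 6) and 0.72 ± 0.16 (SD, n = 5), a difference of -0.41 (two-sided exact permutation p 0.628, 0.680 adjusted over the 5 ratios). Leaving out vehicle replicate 001 turned it to 0.062 (exact permutation p 0.857, adjusted 0.968), so its direction rested on that library.

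AKT1 to AKT2 ran from 1.76 to 2.82 with a median of 2.01 under vehicle, and was 2.09, 1.95, 1.93, 2.09 and 2.03 under evexomostat. The evexomostat ratios thus stayed near 2.0 while vehicle replicates 001 and 006 were the highest. The difference in mean log2 ratio was -0.09 (exact permutation p 0.528, adjusted 0.680), -0.010 with vehicle replicate 001 left out and 0.080 with a replicate block on the 8 libraries numbered alike. PIK3CA to PIK3CB was the steadiest ratio among vehicle libraries, from 0.789 to 0.965 under vehicle and from 0.735 to 0.916 under evexomostat (difference -0.05, exact permutation p 0.506, adjusted 0.680). With vehicle replicate 001 left out that difference was -0.08.

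PIK3CA to PIK3R1, a catalytic to a regulatory subunit, ran from 0.475 to 1.02 under vehicle and was 1.25, 0.629, 0.849, 0.690 and 1.04 under evexomostat. Its difference in mean log2 ratio was 0.29 (exact permutation p 0.247, adjusted 0.680), and 0.40 with vehicle replicate 001 left out (exact permutation p 0.135, adjusted 0.675). MTOR to RPTOR differed by -0.13 (exact permutation p 0.680, adjusted 0.680), with 6.85 in vehicle replicate 001 and 1.21 in vehicle replicate 007 at the ends of the vehicle range, and 2.14 to 2.57 under evexomostat. That difference was 0.15 without the first of these libraries and -0.35 without the second, so its direction rested on them. No ratio passed, and the smallest p this test can give with 6 and 5 libraries is 0.00433.

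**Figure D3:**
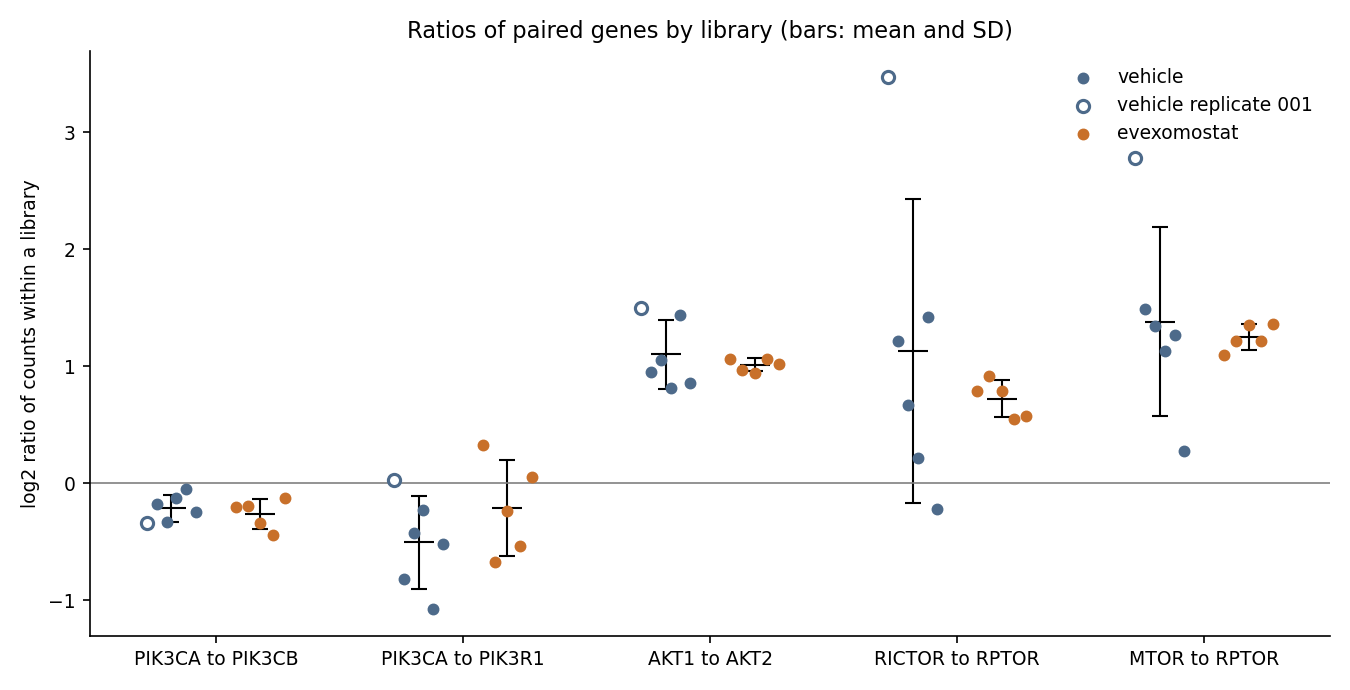
Log2 ratio of counts of 2 genes within each library (y axis) for the 5 pairs on the x axis, vehicle in blue (open circle: replicate 001) and evexomostat in orange, with mean and SD as bars. The evexomostat libraries sit inside the vehicle range for RICTOR to RPTOR, AKT1 to AKT2 and MTOR to RPTOR, and vehicle replicate 001 is highest in these 3.

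The rest of the pathway was followed in 7 lists, of which 83 of 91 genes were tested. No listed gene passed the threshold of an edgeR adjusted p under 0.05, and 12 of 83 (14.5%) had an unadjusted p under 0.05, beside 13.4% of all genes. Of these 12, 5 were higher (4.82% of all genes were) and 7 lower (8.55% of all genes were) under evexomostat. The median log2 fold change over the 83 was -0.03, beside -0.04 over all tested genes. DESeq2 called 1 of the 83 (TBC1D7), beside 3.90% of all genes, and limma-voom 0, beside 0.534%. An unadjusted p under 0.05 was given to 14 by DESeq2 (15.3% of all genes) and to 11 by limma-voom (12.8%). With quality weights limma-voom called 4 (PIK3C2A, PRR5L, TBC1D7 and EIF4EBP1), beside 6.36% of all genes, and gave 25 an unadjusted p under 0.05, beside 24.7%. The groups did not overlap in CPM in 4 of the 83 (INPP5J, TBC1D7, SESN1 and SESN2), beside 2.97% of all genes. The sestrins, named after their values were seen, are sensors of amino acids and stress that restrain mTOR complex 1. SESN1 had a log2 fold change of -0.33 and SESN2 of 0.34, with edgeR adjusted p-values of 0.296 and 0.211.

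Among the other listed PI3K genes, 8 of 10 tested were below 0, beside 55.4% of all genes. Of these, PIK3CG was at -0.03 and turned to 0.04 without vehicle replicate 001. PIK3C2A, a class II PI3 kinase that acts in membrane traffic, was at 48.1 ± 9.41 CPM (SD, n = 6) and 34.9 ± 5.37 (SD, n = 5), with a log2 fold change of -0.46 ± 0.15 SE (adjusted p 0.210 by edgeR). Of 10 lipid and AKT phosphatases tested, 6 were above 0 and 4 below. INPP5J, an inositol 5-phosphatase, ran from 2.13 to 5.93 CPM under vehicle and from 6.21 to 7.53 under evexomostat without overlap (0.62 ± 0.24 SE in log2 fold change, adjusted p 0.286 by edgeR). In the list of kinases related to AKT, 0 of 3 tested genes had an unadjusted edgeR p under 0.05.

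Among subunits and assembly factors of the mTOR complexes, 8 of 9 were above 0, beside 44.6% of all genes, with a median log2 fold change of 0.08. The smallest of the 8, 0.0099 in TTI2, was -0.021 without vehicle replicate 001. In this list 1 higher and 1 lower gene had an unadjusted edgeR p under 0.05. PRR5L, a protein bound to complex 2, was low, at 6.32 and 4.03 CPM, and its log2 fold change was -0.65 ± 0.25 SE (adjusted p 0.273 by edgeR). TBC1D7, the smallest subunit of the TSC complex that restrains mTOR complex 1, had the smallest p of all 83. It was scarcely detected, with 7 to 40 counts per library, from 0.625 to 1.03 CPM under vehicle and from 0.249 to 0.559 under evexomostat, with no overlap (-1.16 ± 0.28 SE in log2 fold change, adjusted p 0.0861 by edgeR).

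In the list of amino acid sensing on the lysosome, 14 of 28 genes were above 0 and 14 below. FNIP2, a partner of folliculin, had the smallest p, at 17.8 ± 4.09 CPM (SD, n = 6) and 12.2 ± 1.38 (SD, n = 5), with a log2 fold change of -0.54 ± 0.17 SE (adjusted p 0.189 by edgeR). Among 18 tested substrates of AKT and mTOR complex 1, LPIN1, a phosphatidate phosphatase, had the smallest p (-0.52 ± 0.17 SE in log2 fold change, adjusted p 0.184 by edgeR).

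When vehicle replicate 001 was left out, 3 of the 83 genes passed the threshold (3.61%, beside 5.22% of all genes). These were PRR5L (log2 fold change -0.78, edgeR adjusted p 0.0354), TBC1D7 (-1.12, edgeR adjusted p 0.0438) and EIF4EBP1, the translation repressor that mTOR complex 1 phosphorylates (0.59, edgeR adjusted p 0.0455). EIF4EBP1 was named after its values were seen, and with all 11 libraries its log2 fold change was 0.24 ± 0.28 SE (adjusted p 0.771 by edgeR).

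**Figure D4:**
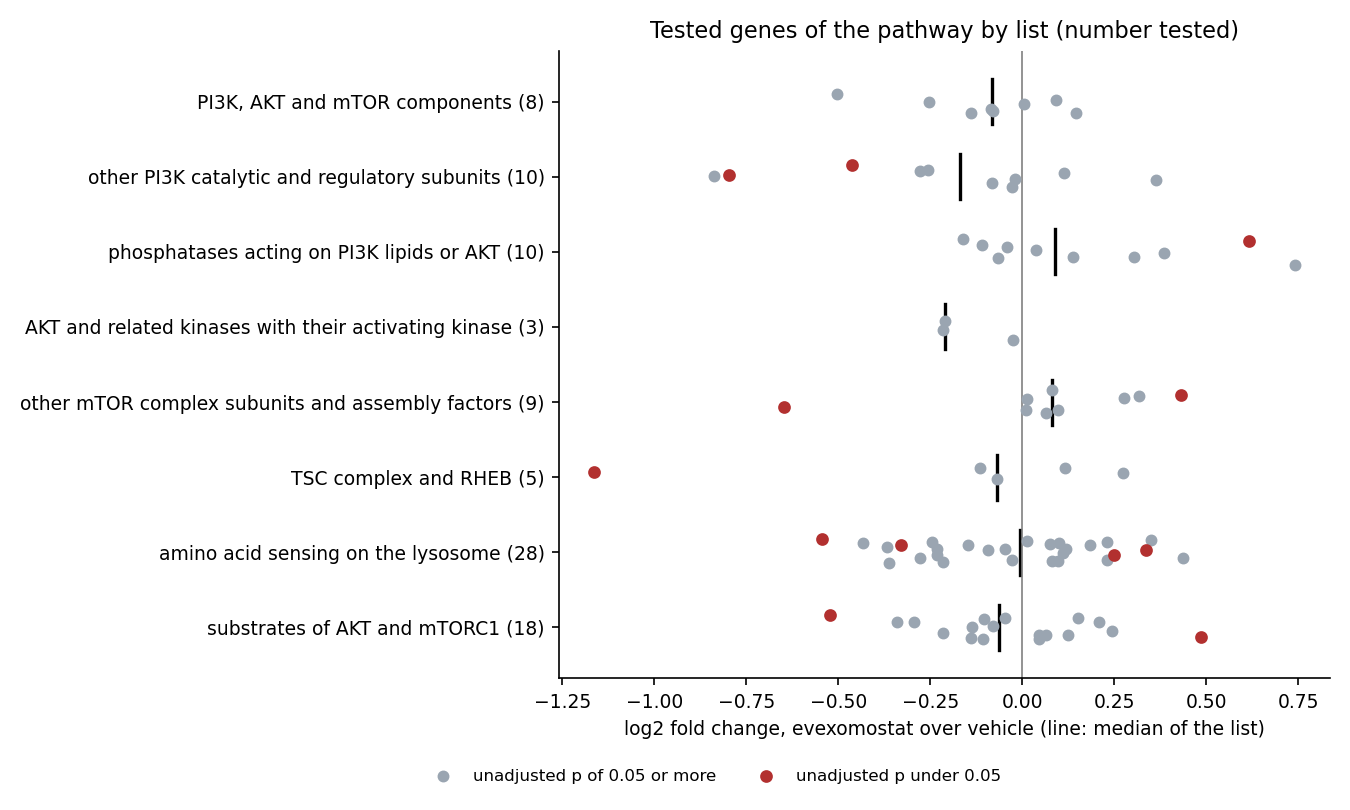
Log2 fold change, evexomostat over vehicle (x axis), of each tested gene of the 8 components and of the 7 pathway lists (rows, with the number tested), with the median of each list as a black line. Genes with an unadjusted edgeR p under 0.05 are red; 12 of the 83 listed genes and none of the 8 components are, and TBC1D7 lies farthest to the left at -1.16.

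The tested gene whose profile was most like each component was taken as the one with the smallest root mean square difference of centred log2 CPM over the 11 libraries, as a description. EXOSC10, an RNA exosome subunit, was nearest to MTOR, at 0.07 log2 units beside a median of 0.47 over all genes, and again without vehicle replicate 001. As the smallest difference over all tested genes, such a value is bound to lie below the median. XPO1, a nuclear export receptor, was nearest to PIK3CB, at 0.07 both with and without that library. For the other 6 the nearest gene changed when that library was left out, for example from ANPEP to ATF2 for RPTOR and from SUPT6H to ACOT8 for AKT2. Among the components themselves the nearest pair was PIK3CA and PIK3CB, at 0.11.

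In the authors' deposited table, no component had an adjusted p-value under 0.811. That table lists log2 fold changes of -0.42 for PIK3R1, -0.16 for RICTOR, -0.06 for PIK3CA, -0.00282 for RPTOR, 0.00426 for PIK3CB, 0.08 for MTOR, 0.17 for AKT1 and 0.23 for AKT2. Those values lie near an edgeR fit scaled by library size only, which gave -0.42 for PIK3R1, 0.00436 for PIK3CB and 0.23 for AKT2. The main fit, with TMM, gave -0.50, -0.08 and 0.15 for these genes.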

How the data were processed

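RNA was measured in 11 tumours, 6 vehicle and 5 evexomostat, grouped and numbered by the titles of the labels. Per the labels' protocols, total RNA of a frozen tumour portion was sequenced as paired reads of 150 bases. Per the submitters' processing notes, bcl2fastq 2.17, STAR 2.7.5c, featureCounts, Subread and edgeR were used with the builds GRCh37 and hg19. How strand was treated, which annotation was used and whether mouse reads were removed are not given in the sources used here, so host reads may be included in human genes. The authors deposited whole-number counts per gene symbol, RPM values that differ from the count per column total by at most 2e-13, and a comparison table with log2 fold changes, p-values and adjusted p-values.

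Genes were kept by filterByExpr (minimum count 10, minimum total 15; 16653 of 28152), scaled by TMM and compared across all genes with edgeR 4.0.16's quasi-likelihood test in R 4.3.3, adjusted by Benjamini-Hochberg, threshold 0.05. Standard errors are those implied by the F statistic. Ratios were tested by exact permutation in scipy 1.17.1 over all 462 assignments. Alternatives were other scalings, DESeq2 1.42.0, limma 3.58.1 (voom, quality weights, trend on RPM), other filters, a replicate block, removal of length and GC trends (GENCODE 29, matched for 94.6% of tested genes) and leaving out each library. Fits were also run on simulated counts with known changes, with outcomes not reported here. No simulated library was given the departures of vehicle replicate 001, apart from a length trend used for the length and GC fit. No 2 libraries agreed within sampling noise. The labels number the tumours without saying that each came from its own animal, and p-values measure the spread between these samples only.

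The components and lists were chosen with earlier results of these data known. All 8 components were named; from each list, genes past the threshold and the gene with the smallest unadjusted p under 0.05. SESN1, SESN2, EIF4EBP1, TTI2 and PIK3CG were named outside that rule, after their values were seen. PIK3R6, PIK3C2G, SGK2, SGK3 and EIF4EBP3 did not pass the filter, and GATSL3, GATSL2 and C7orf60 were not matched. Promoters are RefSeq's on GRCh38.p14, matched by symbol for all 8. No coordinates were carried between builds. Counts of PIK3CA and AKT1 carry the overlap named in the text. Other markers read for tissue content were of stroma (424.7 to 2108 RPM summed per library), endothelium (11.8 to 24.9), leukocytes (42.0 to 96.0) and adipocytes (27.1 to 50.8, ADIPOQ at 0 counts in all libraries). Single values of some listed genes are not reported here.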

Additional observations from a re-analysis of the deposited data

Results flagged for a closer look

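In 26 sets of values (8 genes and 5 ratios in each group), the highest or lowest library lay far from the others in 2, where chance gives about 1 in 20 sets. The lowest vehicle library for AKT2, replicate 001, was at 41.8 CPM while the other 5 lay between 87.7 and 108.6 CPM. The highest vehicle library for PIK3CB, replicate 003, was at 38.7 CPM while the other 5 lay between 28.6 and 31.8 CPM.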

How the results depend on the processing

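Over 262 recomputed values of the 8 log2 fold changes and 5 ratios, 237 kept their direction and their side of the threshold, 25 changed sign and 0 passed the threshold. The smallest adjusted p among them was 0.0810. PIK3CA, PIK3R1, RICTOR and the ratio of PIK3CA to PIK3R1 kept their sign in every alternative. For these changes of sign the cause was not tested.

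PIK3CB was at 0.00436 with library size only, 0.00451 and 0.00463 with limma-trend on RPM with pseudocounts of 1 and 0.1, and 0.0112 with length and GC trends removed. RPTOR was at 0.16 with limma-voom and at 0.26 and 0.28 with the RPM pseudocounts. MTOR was at -0.082 with limma-voom and quality weights. The RPM fits moved the median log2 fold change of all genes from -0.04 to 0.08 and 0.10. With medians in place of means the ratio of PIK3CA to PIK3CB was 0.00879 and that of AKT1 to AKT2 0.0145.

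Both groups have libraries numbered 003, 004, 005 and 007, whose deviations from their group means had correlations of -0.27, 0.07, 0.05 and -0.10 within a number. What the number stands for is not given in the labels. With the replicate block on those 8 libraries 107 genes passed, AKT2 was at -0.040, MTOR at -0.21 and RPTOR at -0.43 (edgeR, unadjusted p 0.0366, adjusted 0.221), and the ratios AKT1 to AKT2, RICTOR to RPTOR and MTOR to RPTOR at 0.080, 0.23 and 0.22. The same 8 libraries without the block gave -0.042, -0.22 and -0.48 for AKT2, MTOR and RPTOR, and 733 genes past the threshold (225 higher, 508 lower). No component passed with or without the block.

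Across fits that each left out 1 library, the log2 fold change of AKT1 ranged from -0.00475 to 0.17, MTOR from -0.11 to 0.12 and RPTOR from -0.29 to 0.19, and the ratios RICTOR to RPTOR from -0.67 to 0.062 and MTOR to RPTOR from -0.35 to 0.15. Over all genes, 101 passed the threshold (29 higher, 72 lower), from 1 to 865 across these fits (higher 1 to 328, lower 0 to 537; the 0 came without evexomostat replicate 005). The total was 62 with library size only (28 lower), 649 with DESeq2 (200 higher, 449 lower) and 1059 with quality weights (384 higher, 675 lower). Lower genes were 42 with upper quartile scaling and 31 and 30 with the RPM pseudocounts.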
